A study of Macaca mulatta with 20 samples.

Results

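Of 11956 genes that both a rhesus and a human array could read, 97 had higher levels in thymus and in immortalized fibroblasts than in testis, cerebral cortex and pancreas. A gene was counted when the lower of its thymus and fibroblast means exceeded the highest of the other 3 means by at least 1 log2 unit, and when it did so on both array types. This difference is called the margin below. The 97 genes were 0.811% of those on both types. Taken alone, the rhesus arrays gave 230 such genes (1.92%) and the human ones 157 (1.31%). Since measured levels chose the genes, the margin is given as a description with no test.

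Total RNA of rhesus macaque came from 5 sources: thymus, testis, cerebral cortex, pancreas and a culture of immortalized fibroblasts, which are connective tissue cells altered to keep dividing. Aliquots of each RNA were read on 2 rhesus arrays (Rhesus Macaque Genome Array) and 2 human arrays (Human Genome U133 Plus 2.0), which gave 20 arrays. The labels give no treatment, age or genotype, and no other detail of the fibroblast line. In the labels the arrays are technical replicates, numbered 1 and 2 for the rhesus and 3 and 4 for the human type, so every p-value below measures the spread between arrays and compares 5 RNA preparations, not animals. Levels are the log2 expression values that the authors deposited, and a gene was read by its probe set with the highest mean over the 10 arrays of a type.

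Cells that divide copy their DNA, separate the copies on a spindle and split, and many genes for these steps are switched on only in cycling cells. The thymus is the organ in which immature T cells multiply and are selected, and cultured fibroblasts multiply until they are crowded. Testis holds dividing germ cells too, whereas neurons of the cortex and enzyme-secreting cells of the pancreas seldom divide.

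The sources carried the markers of their labels, with one exception in part. All 10 genes of a list of developing T cells read at 8.25 to 13.97 in thymus on the rhesus arrays, and at 2.54 to 4.02 in fibroblasts. All 10 genes of a list of fibroblasts and their matrix were at 8.08 or more in fibroblasts on the rhesus arrays. Many were read elsewhere too, with 8 at 6 or more in testis and in pancreas, 7 in thymus and 5 in cortex. All 5 neuron genes were at 8.01 or more in cortex on the rhesus arrays, with 2 at 6 or more in fibroblasts and 1 in each other source. All 5 exocrine pancreas genes were at 15.08 or more in pancreas. In testis, 3 of 8 male germ cell genes were at 6 or more on the rhesus arrays, and the protamine PRM1 and the sperm protein ACRV1 were at the floor on both array types. The floor is the highest source mean of control probe sets for bacterial genes that were not added, 3.56 (rhesus) and 3.22 (human). By summed level alone, testis did not stand above cortex on the germ cell list by the rhesus arrays. The summed level of the 8 genes (log2 of the summed linear values) was 9.05 to 9.19 in testis and 9.17 to 9.21 in cortex. On the human arrays it was 8.51 to 8.76 in testis and 7.72 to 7.75 in cortex. The rhesus sum in cortex rested on 1 gene at 9.01, with 6 of the 8 at the floor, against 3 at the floor in testis. In the limma test given below, testis was higher than the mean of cortex and pancreas in 4 of the 8 and lower in 1 (rhesus). Pancreas arrays stood apart, with spiked-in control transcripts at a mean of 11.19 on the rhesus arrays against 9.69 to 10.35 in the other sources, and 11.38 against 9.93 to 10.50 on the human arrays. The reading of beta-actin at its 3' end minus its 5' end reached 4.58 in pancreas on the rhesus arrays, where the other sources ran from 2.07 to 2.66. On the human arrays pancreas did not stand apart in this reading, at 2.40 against 2.03 to 2.47 in the other sources. With pancreas left out of the margin, 140 genes were counted, and all 97 were among them.

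The 97 genes were a mixture, with most of them on no list of cell division genes. Lists of cell division genes, 11 in number and holding 221 genes, had 160 genes on both array types, and 29 of these were among the 97. The other 68 were on none of these lists, and they included proteases, actin regulators, matrix proteins and genes of innate immunity. Further genes known from cell division were among the 68. They were CDCA3, CDKN3, ERCC6L, PIMREG, LRR1 and RNASEH2A, picked out after their values were seen. The label of a shared division programme therefore fits part of the set, which is called the shared genes here.

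**Figure D1:**
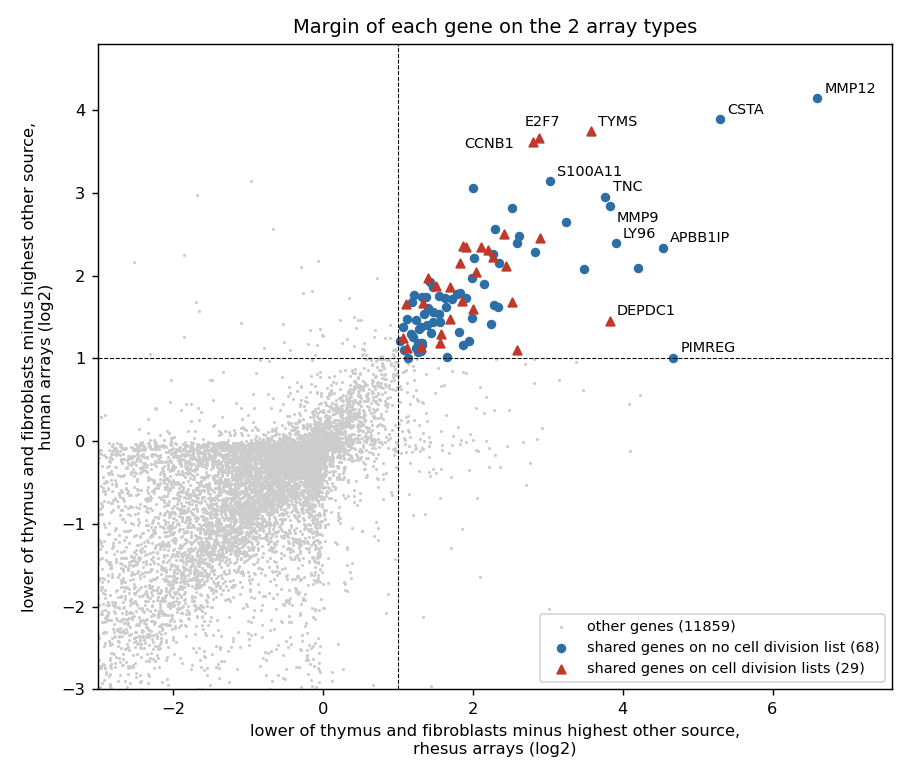
Margin of each of 11956 genes on the rhesus arrays (horizontal, log2) and on the human arrays (vertical, log2), with dashed lines at 1. Triangles are the 29 shared genes on cell division lists and filled circles the 68 on none, with MMP12 and CSTA farthest out on both axes by their readings, those of MMP12 being taken against sources at the floor. Genes beyond the plotted range are not drawn.

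Across the 97 genes the median margin was 1.81 (rhesus) and 1.69 (human), and 38 and 32 genes had a margin of at least 2. The margins of the 2 types had a Pearson correlation of 0.68 across genes, given as a description since these margins chose the genes. Every thymus and fibroblast array lay above every other array of its type for 97 of 97 genes (rhesus) and 96 of 97 (human). Over all genes these shares were 8.43% and 6.63%, and since the same arrays chose the genes nothing is read from the difference. For 5 (rhesus) and 7 (human) shared genes testis, cortex and pancreas were all at the floor, so that their margins are lower bounds when taken against the floor. On that scale 1 gene, RARRES1 on the human arrays, had a bound under 1, at 0.69. The genes nearest the limit on its inner side were BZW2 with margins of 1.14 and 1.00, PIMREG with 4.67 (at least 3.83 over the floor) and 1.01, and SP100 with 1.66 and 1.02 on the rhesus and human arrays. Nearest on the outer side were ITGAE with 1.11 and 0.999, STING1 with 2.31 and 0.995 and SLC20A1 with 1.13 and 0.994.

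Macrophage elastase, MMP12, a secreted protease that cuts elastin, had readings that differed by 6.59 among rhesus and 4.15 among human arrays. Since testis, cortex and pancreas were at the floor on both types, its margin over the floor was at least 6.38 and at least 3.34. Its rhesus arrays read 9.87 and 9.997 in thymus, 10.33 and 10.42 in fibroblasts, 3.32 and 3.36 in testis, 2.34 and 2.33 in cortex, and 2.37 and 2.80 in pancreas. Its human arrays read 6.63 and 6.50 in thymus and 7.53 and 7.21 in fibroblasts. The means of its other 3 sources on the human arrays lay between 2.37 and 2.42. Cystatin A, CSTA, an inhibitor of cysteine proteases in the cytosol, had margins of 5.30 and 3.89, with the highest other source above the floor. CSTA read 10.56 and 10.51 in thymus and 10.05 and 10.04 in fibroblasts on the rhesus arrays, and 4.81 or less on every other rhesus array. Human arrays gave CSTA at 8.87 and 8.87 in thymus, 7.94 and 8.02 in fibroblasts and at most 4.09 elsewhere. Thymus and fibroblast arrays of both genes thus lay far above the rest, with no overlap.

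Thymidylate synthase, TYMS, which makes the thymidine needed for DNA copying, had the largest margin of the division genes by the smaller of its 2 values, which were 3.57 and 3.74. On the rhesus arrays TYMS read 10.53 and 10.41 in thymus, 10.73 and 10.78 in fibroblasts, 6.89 and 6.91 in testis, 3.56 and 3.85 in cortex, and 4.69 and 5.30 in pancreas. Human arrays gave TYMS at 9.72 and 9.74 in thymus, 9.87 and 10.03 in fibroblasts, 5.94 and 6.03 in testis, 3.36 and 3.38 in cortex, and 3.47 and 3.42 in pancreas. Testis stood between the high pair and the low pair on both array types. Ribonucleotide reductase subunit RRM1, which makes the building blocks of DNA, was the other shared gene of 11 nucleotide synthesis genes, with margins of 1.13 and 1.12. Its rhesus means were 10.97 in thymus, 10.25 in fibroblasts, 9.12 in testis, 7.52 in cortex and 7.64 in pancreas.

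Genes that push cells through mitosis made the fullest group. Of 17 genes for mitotic entry and its checkpoint, 9 were shared genes. Cyclin B1, CCNB1, the partner of the kinase CDK1 at entry into mitosis, read 10.82 and 10.65 in thymus, 9.73 and 9.87 in fibroblasts, 6.99 and 7.01 in testis, 5.27 and 5.30 in cortex, and 2.50 and 2.23 in pancreas on the rhesus arrays. The human readings of CCNB1 were 8.52 and 8.25 in thymus, 8.33 and 7.94 in fibroblasts, 4.59 and 4.46 in testis, 3.32 and 3.89 in cortex, and 3.04 and 2.75 in pancreas. CCNB1 was lowest in pancreas on every array. The phosphatase CDC25B, which activates CDK1, had margins of 2.42 and 2.50. CDK1 itself had margins of 1.69 and 1.87, and the kinases MELK and CHEK1 had 1.86 and 1.69, and 2.53 and 1.68. The checkpoint protein MAD2L1, the cyclin CCNB2, the transcription factor FOXM1 and the chromosomal passenger CDCA8 completed the 9, with margins from 1.10 to 2.59.

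Chromosome structure held 5 shared genes of 12: the proliferation marker MKI67, the condensin subunits NCAPG, NCAPG2 and SMC2, and the topoisomerase TOP2A. MKI67 read 10.80 and 10.79 in thymus, 8.11 and 8.23 in fibroblasts, 5.80 and 5.65 in testis, 2.76 and 2.90 in cortex, and 2.83 and 2.66 in pancreas on the rhesus arrays. In the same order, its human arrays read 9.94 and 9.88, 8.20 and 8.27, 6.12 and 6.13, 4.03 and 4.02, and 4.83 and 4.83. By these probe sets its levels fell into steps, with thymus highest, then fibroblasts, then testis, and no overlap between them. The fibroblast step was not read by its further probe sets. Those of the rhesus type read thymus at 7.82 and 7.87, fibroblasts at 2.46 and 3.07, and testis at 2.55 and 2.87. A further human one read 4.32, 2.58 and 2.51. TOP2A, which untangles copied DNA, had margins of 1.12 and 1.65. Its testis arrays were high, at 8.87 and 8.97 of the rhesus type, where cortex read 2.31 and 2.28. The kinetochore list had 3 of 18, CENPW, NUF2 and SPC25, with margins from 1.88 to 2.90. Cytokinesis had 3 of 6: ECT2 with 2.21 and at least 2.00, DEPDC1 with at least 3.80 and at least 1.05, and ANLN with 1.34 and 1.67.

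Of 19 regulators of G1 and S phase, E2F7, E2F8 and CCNA2 were shared genes. E2F7 and E2F8 are transcription factors that shut down genes of S phase. E2F7 read 8.61 and 8.61 in thymus, 6.53 and 6.52 in fibroblasts, 3.52 and 3.75 in testis, 2.75 and 2.70 in cortex, and 2.89 and 3.13 in pancreas on the rhesus arrays. Its human arrays read 8.62 and 8.51 in thymus and 6.57 and 5.95 in fibroblasts, and its 6 other arrays lay between 2.40 and 2.75, under the floor. Thymus was the highest source on all E2F7 arrays. Of 6 genes for anaphase and mitotic exit, securin, PTTG1, had margins of 2.12 and 2.34 and the ubiquitin enzyme UBE2S had 1.70 and 1.48. The spindle list had 1 of 15, the kinesin KIF23, with 1.90 and 2.35.

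The lists for copying and repairing DNA gave few shared genes. Of 31 genes for DNA replication CDC6, a loading factor for the replicative helicase, was one, which is 3.23% against 0.811% of all genes, and its margins were 1.31 and 1.14. None of 13 genes for copying chromatin and none of 12 for DNA repair in dividing cells reached 1 on both array types, counts too small to set apart from the share of all genes. For the 131 division genes outside the set, testis was the highest of the 3 other sources in 87 (rhesus) and 81 (human), or 66.4% and 61.8%, against 35.2% and 31.4% of all genes. With testis left out of the margin, 62 of 160 division genes reached 1 on both array types, against 29 with it. Over all genes the count went from 97 to 303, a larger proportional rise than that of the division genes. UHRF1, which helps to copy DNA methylation and was picked after its value was seen, came closest among the chromatin genes, with margins of 1.16 and 0.99 and testis the highest of the other sources. The lowest margins of all division genes on the rhesus arrays were those of DUT and DNMT1, at -6.91 and -6.90 with cortex highest, while their human margins were -0.28 and 0.82. The probe sets that read these 2 genes therefore gave different orders of the sources on the array types.

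**Figure D2:**
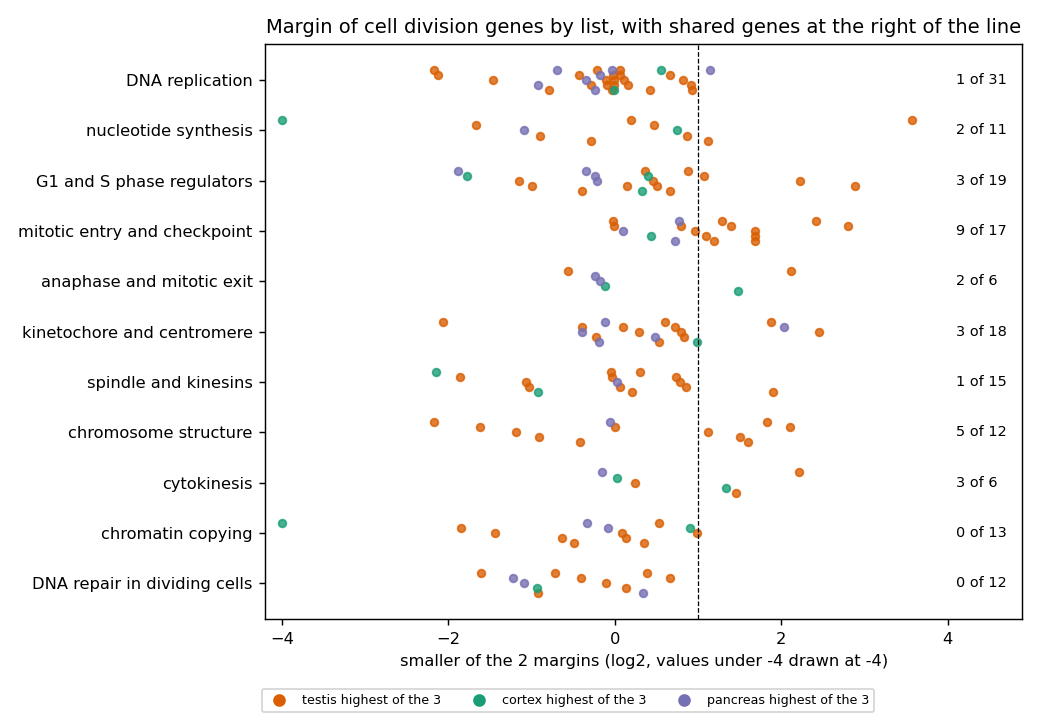
The smaller of the 2 margins (log2) for each of 160 division genes, 1 row per list. Colour gives the source that was highest among testis, cortex and pancreas on the rhesus arrays, the dashed line is at 1, and the count at the right is the shared genes of the genes on both array types. Mitotic entry and checkpoint had 9 of 17, and DNA replication had 1 of 31.

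Among the 68 genes on no division list, 41 were put into 7 groups by what they are known to do. The groups were drawn up after the values were seen and carry no test. The first group held 5 proteases and 1 inhibitor: MMP12, MMP9, ADAM12, ADAMTS6, the lysosomal protease CTSS, and CSTA. Gelatinase B, MMP9, which cuts denatured collagen, read 7.30 and 7.48 in thymus, 9.80 and 9.99 in fibroblasts, 3.56 and 3.55 in testis, 3.06 and 2.24 in cortex, and 3.52 and 2.30 in pancreas on the rhesus arrays. MMP9 on the human arrays read 7.42 and 7.56 in thymus, 9.44 and 9.68 in fibroblasts, and between 3.61 and 4.65 elsewhere. The high and the low sources of MMP9 did not overlap on either type.

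Macrophages are known for MMP12, MMP9, CTSS and LY96, so their markers were read beside these genes. Of 5 macrophage genes, 4 were at 6 or more in thymus on the rhesus arrays and 1 in fibroblasts, with 3 in testis, 2 in cortex and 1 in pancreas. On the human arrays 2 were at 6 or more in thymus, 1 in fibroblasts, 1 in testis and 1 in pancreas. LYZ, TYROBP and AIF1 were at 3.60, 3.73 and 3.27 in fibroblasts on the rhesus arrays, near or under the floor. CD14, the lipopolysaccharide receptor that many fibroblasts also carry, was at 8.40 in fibroblasts and 5.47 in thymus. The summed rhesus level of the 5 genes was 11.87 to 11.88 in thymus, 8.60 to 8.70 in fibroblasts, and 7.95 to 8.63 over the arrays of testis, cortex and pancreas. In thymus, the part of macrophages in the levels of these proteases was not tested.

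The actin cytoskeleton and its signalling gave 12 genes. S100A11, a calcium-binding partner of annexin, had margins of 3.03 and 3.14. It read 11.49 and 11.52 in thymus, 12.87 and 12.92 in fibroblasts, 8.50 and 8.44 in testis, 5.05 and 5.02 in cortex, and 7.13 and 7.59 in pancreas on the rhesus arrays. CAPG, which caps actin filaments, read 7.45 and 7.35 in thymus, 10.23 and 10.30 in fibroblasts, 4.94 and 4.62 in testis, 3.39 and 3.22 in cortex, and 4.41 and 3.70 in pancreas. In both genes fibroblasts stood highest and cortex lowest. Profilin, PFN1, and the Arp2/3 subunit genes ARPC1B and ACTR3 had margins from 1.09 to 2.00. APBB1IP, DOCK2, DOCK10, VAV3 and WIPF1, which pass signals from receptors of blood cells to actin, were shared genes as well. DOCK2, a guanine nucleotide exchange factor of leukocytes, read 9.54 and 9.53 in thymus, 6.90 and 6.77 in fibroblasts, 4.61 and 4.38 in testis, 3.21 and 2.67 in cortex, and 4.31 and 4.45 in pancreas on the rhesus arrays. Of 18 listed surface and cytoskeleton genes of leukocytes and mesenchymal cells on both array types, the 4 shared genes were S100A11, CAPG, PFN1 and ARPC1B.

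Innate immunity and antiviral defence gave 5 genes: LY96, TRIM5, TRIM22, SP100 and PSMB10. LY96, the partner of Toll-like receptor 4, read 6.79 and 6.55 in thymus, 9.58 and 9.62 in fibroblasts and at most 2.78 on the 6 other rhesus arrays. Its human arrays read 5.38 and 5.78 in thymus, 7.86 and 7.78 in fibroblasts, and at most 3.20 elsewhere, so its signal outside the pair was at the floor on both types. TRIM5, which restricts retroviruses, had small margins of 1.08 and 1.10, with rhesus means of 7.28 in thymus, 8.23 in fibroblasts, 6.19 in testis, 3.27 in cortex and 5.69 in pancreas. TRIM22 had margins of 1.56 and 1.44. PSMB10, a subunit of the immunoproteasome, was the single shared gene of 9 antigen presentation genes.

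Matrix and adhesion gave tenascin C, TNC, fibronectin, FN1, and the surface protein CD47, a signal against engulfment. TNC read 8.26 and 8.11 in thymus, 12.07 and 11.83 in fibroblasts, 3.06 and 3.07 in testis, 4.52 and 4.31 in cortex, and 4.41 and 3.23 in pancreas on the rhesus arrays. FN1 was the single shared gene of 10 genes of fibroblasts and their matrix. Transcription factors and chromatin proteins were ID3, RUNX2, REL, ELK3, IER2 and HMGA1. ID3, an inhibitor of basic helix-loop-helix factors, had margins of 2.52 and 2.82, with rhesus arrays at 10.83 and 10.84 in thymus, 9.67 and 9.74 in fibroblasts, and between 5.92 and 7.28 elsewhere. RUNX2, a factor of bone development, had margins of 1.81 and 1.32 with cortex the highest of the other 3. Purine and nucleotide metabolism gave MTAP, ADSL and NUDT5, with margins from 1.39 to 1.73.

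**Figure D3:**
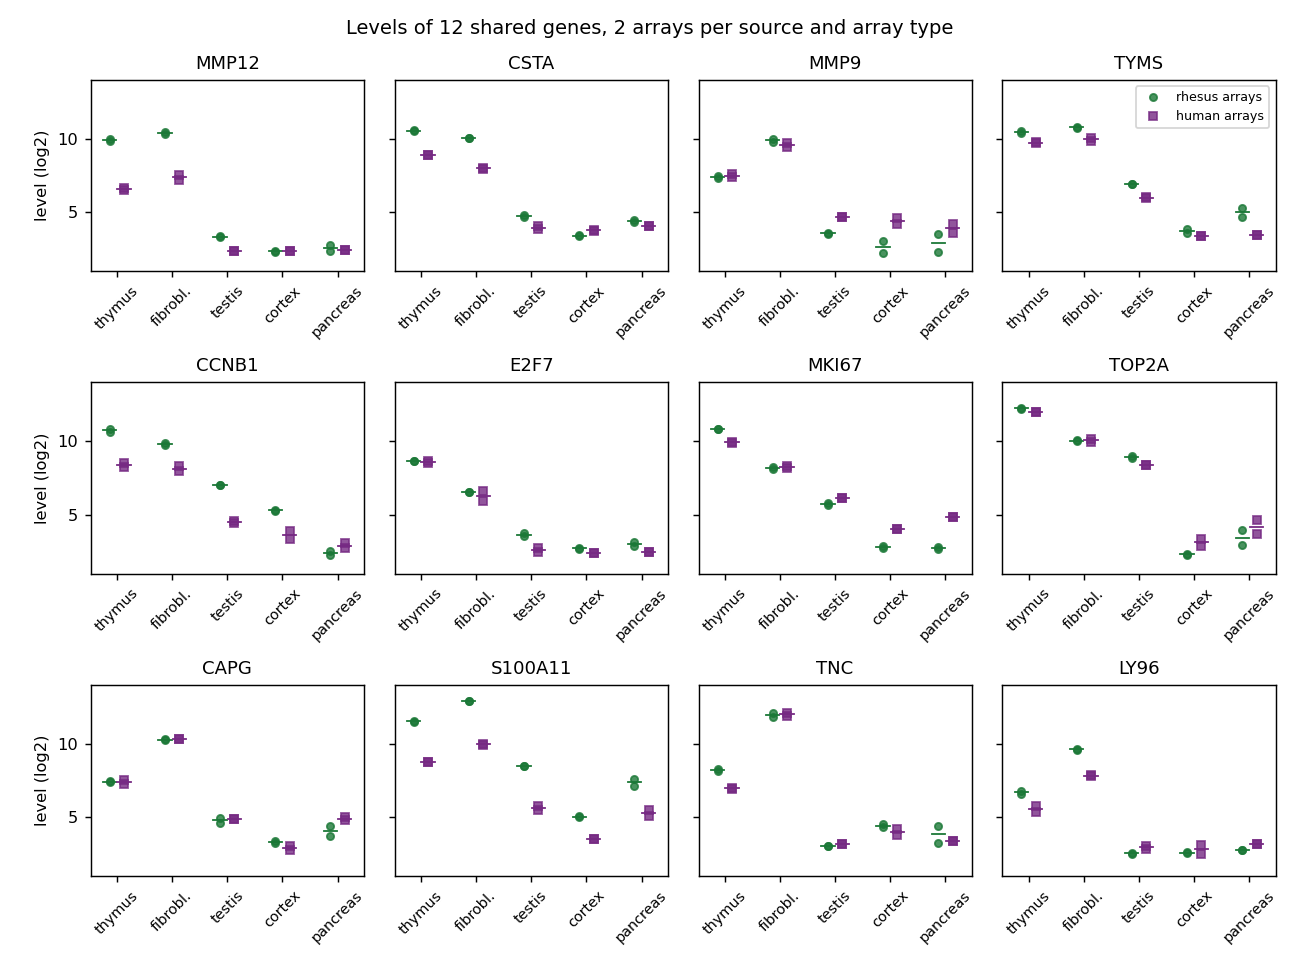
Levels (log2) of 12 shared genes by source, with circles for the 2 rhesus arrays, squares for the 2 human arrays and short lines for their mean. Thymus and fibroblasts lie above testis, cortex and pancreas in each panel, as with MMP12 at 9.87 and 9.997 in thymus and 3.36 or less outside the pair on the rhesus arrays. Levels of different genes come from different probe sets and are not comparable.

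Of the marker lists of single cell types, that of fibroblasts and their matrix held FN1. None of 10 developing T cell genes, 5 B cell genes, 5 macrophage genes, 8 male germ cell genes, 5 neuron genes and 5 exocrine pancreas genes were shared genes, and none of 10 genes for RNA processing and 9 for cell cycle arrest were. With 0.811% of all genes in the set, lists of this length would hold none at the share of all genes too, so nothing is read from these counts. In bulk RNA, fewer cells of a type and less RNA per cell cannot be told apart, which holds for every level here.

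Which of the high sources was higher is not set by the margin, and it was tested with limma across all probe sets, with calls at an adjusted p under 0.05 and a log2 difference of at least 1. By the calls made on both array types, the division genes leaned to thymus and the rest to fibroblasts. On the rhesus arrays alone, the 68 others had 12 calls for thymus and 16 for fibroblasts, near the shares of all genes (16.8% and 19.0%). The human arrays gave 6 and 18 calls. The median difference of the 68 was small, at -0.11 (rhesus) and -0.12 (human). On both array types thymus exceeded fibroblasts in 20 of the 97 shared genes, against 9.03% of all genes, and fibroblasts exceeded thymus in 16, against 11.3%. Opposite calls on the array types were made in 0 shared genes and in 0.452% of all genes. By array type, thymus was higher in 29 shared genes of the rhesus arrays (16.8% of all genes) and in 23 of the human arrays (11.3%). Fibroblasts were higher in 17 (19.0%) and 19 (13.7%). Among the 2827 genes with thymus and fibroblast means of at least 6 on both types, thymus was higher on both in 14.6% and fibroblasts in 14.96%. The shares of the shared genes were 20.6% and 16.5%, the second near that of the bright genes. With the spiked controls subtracted from each array, a scaling added after seeing the data, the split turned to 16 with thymus higher and 26 with fibroblasts higher (rhesus), and to 16 and 29 (human). That scaling moved the median of all genes by -0.48 and -0.41. The remaining 51 (rhesus) and 55 (human) shared genes did not pass the test, against 64.2% and 75.0% of all genes, which does not show equal levels.

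Of the 29 shared genes on division lists, 15 were higher in thymus on both array types and 1, ANLN, was higher in fibroblasts. Over all 160 division genes 64 were higher in thymus and 4 in fibroblasts, against 9.03% and 11.3% of all genes. E2F8 was higher in thymus by 3.01 ± 0.19 on the rhesus arrays (SE, n = 2 arrays per source, limma adjusted p = 2.19e-05) and by 2.63 ± 0.35 on the human arrays (limma adjusted p = 0.00246). E2F7 was higher by 2.09 and 2.30, CCNB2 by 2.23 and 2.26 and CDCA8 by 2.48 and 2.10, all called on both types by limma. The calls of CCNB2 and CDCA8 on the human arrays were lost when either thymus array was left out, with limma adjusted p-values of 0.0614 and 0.0634 for CCNB2 and 0.0683 and 0.118 for CDCA8. By the smaller of its 2 differences RGS10, a brake on G protein signals that is on no division list, leaned most to thymus, though E2F8 exceeded it on the rhesus arrays. RGS10 was higher in thymus by 2.92 ± 0.16 on the rhesus arrays (limma adjusted p = 1.3e-05) and by 3.18 ± 0.09 on the human arrays (limma adjusted p = 3.02e-06). Its rhesus arrays read 11.03 and 10.95 in thymus, 8.24 and 7.90 in fibroblasts, and 5.84 or less elsewhere.

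Of the 68 shared genes on no division list, 15 were higher in fibroblasts on both array types, against 11.3% of all genes. Thymus was higher in 5, a share no larger than the 9.03% of all genes. TNC was higher in fibroblasts by the widest step on both types, with thymus minus fibroblasts at -3.76 ± 0.35 on the rhesus arrays (limma adjusted p = 0.000176) and -5.01 ± 0.14 on the human arrays (limma adjusted p = 2.23e-06). Ordered by the smaller of the 2 differences, CAPG followed with -2.86 and -2.92, FN1 with -2.83 and -3.19, LY96 with -2.93 and -2.25, and FXYD5, a regulator of the sodium pump, with -2.13 and -2.69, all called by limma on both types. By the probe sets used, all 3 matrix and adhesion genes were higher in fibroblasts on both types. The proteases MMP9 and ADAM12 were too, at -2.51 and -1.61 on the rhesus arrays, and MMP12, at -0.45 and -0.80, was under the minimum difference. By further probe sets of CD47, thymus minus fibroblasts ran from -0.76 to 2.07 on the rhesus arrays. A further human one gave -1.58 and another 0.01. The actin group was split, with DOCK2, DOCK10 and WIPF1 higher in thymus and S100A11, CAPG and ARPC1B higher in fibroblasts on both types. PFN1 differed by 0.08 on each array type and HMGA1 by -0.09 and -0.07, and neither passed the test.

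**Figure D4:**
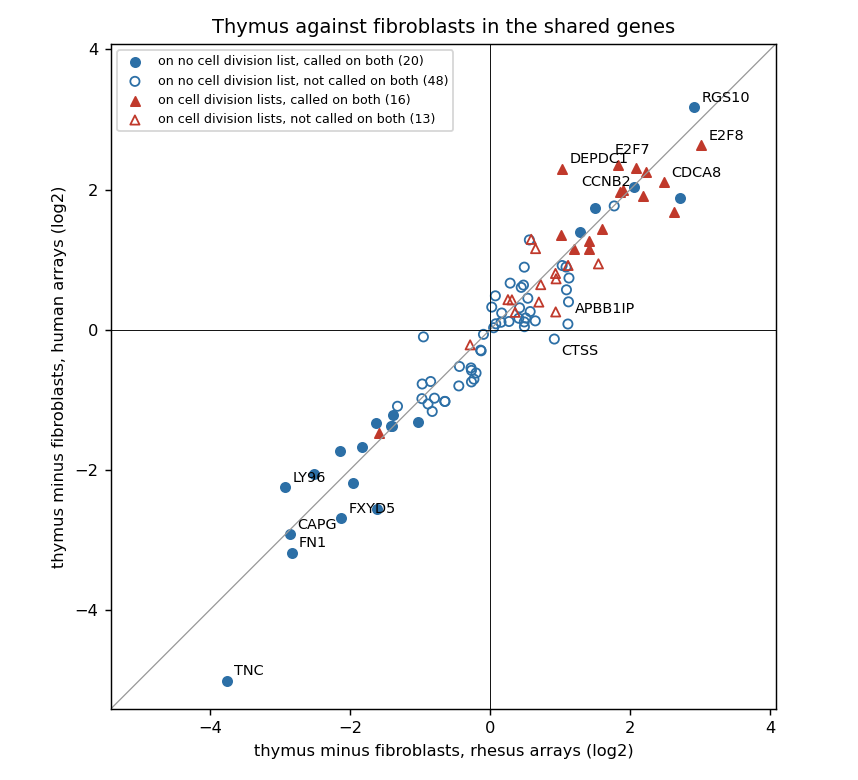
Thymus minus fibroblasts (log2) for the 97 shared genes on the rhesus arrays (horizontal) and the human arrays (vertical), with the diagonal in grey. Filled marks are the 36 genes that limma called in the same direction on both types, triangles the genes on division lists. RGS10 and E2F8 lie at the upper right, and TNC at -3.76 and -5.01 lies at the lower left.

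The order of testis among the 3 low sources is not set by the margin either, so testis was compared with the mean of cortex and pancreas in the same limma fit. Testis was higher in 28 of the 97 shared genes on both array types, against 12.5% of all genes, and lower in 0, against 6.35%. By type it was higher in 48 (rhesus, 23.8% of all genes) and 34 (human, 16.1%). It was lower in TNC and PSMB10 on the rhesus arrays (13.3%) and in RUNX2 on the human type (7.92%). Counts of lower genes rested on single arrays, with 1 left on the rhesus type without cortex array 1 or testis array 2, and 2 on the human type without either pancreas array. Among the 2827 bright genes testis was higher on both types in 27.4%, near the 28.9% of the shared genes, so the excess over all genes is not particular to them. Of the 29 division genes of the set 15 were higher in testis on both types, and of all 160 division genes 62 were, with 0 lower.

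TOP2A had the largest testis difference on both types, 6.05 ± 0.25 on the rhesus arrays (limma adjusted p = 3.07e-06) and 4.75 ± 0.28 on the human arrays (limma adjusted p = 5.49e-05). Ordered by the smaller of the 2 values, CCNB2 followed with 4.19 and 4.22, MELK with 3.93 and 3.32, CCNA2, the cyclin of S phase, with 3.79 and 2.90, and SMC2 with 2.73 and 3.23. All 5 are genes of S phase or mitosis. Among genes on no division list, PFN1 was higher in testis by 2.33 and 3.09, ADAM12 by 3.62 and 1.96, and the transcription factor ELK3 by 2.39 and 2.28, each called on both types. CDK1 differed by 4.37 on the human type and by 0.30 on the rhesus type, where its probe set read cortex and pancreas at 5.29 and 5.82. The low value belonged to that probe set, since the other 2 rhesus probe sets of CDK1 gave differences of 3.29 and 2.85. A further human probe set of TOP2A likewise gave 0.19 in place of 4.75, and a further rhesus one gave 4.05. MMP12, CSTA, MMP9, LY96 and APBB1IP were not called on either type. The highest of the 3 low sources was testis for 66 (rhesus) and 62 (human) shared genes, or 68.0% and 63.9%, against 35.2% and 31.4% of all genes. It was testis on both types for 52, cortex for 12 and pancreas for 7. Cortex was highest for 16.5% and 15.5% of the shared genes by type (27.1% and 24.8% of all genes), and pancreas for 15.5% and 20.6% (37.7% and 43.8%). Such shares were not taken over the bright genes, so they are not read as particular to the shared genes.

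**Figure D5:**
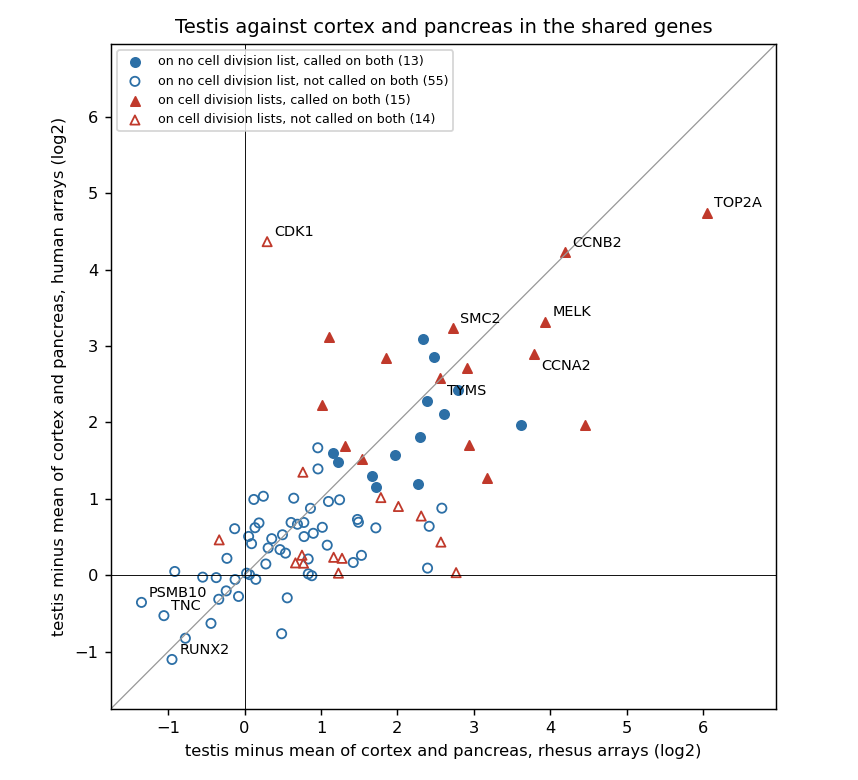
Testis minus the mean of cortex and pancreas (log2) for the 97 shared genes on the rhesus arrays (horizontal) and the human arrays (vertical), with the diagonal in grey. Filled marks are the 28 genes called higher in testis on both types by limma, triangles the genes on division lists. CDK1, at 0.30 and 4.37, lies far from the diagonal.

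Markers of developing T cells were raised in testis beside these differences. Of the 10 genes, 6 were called higher in testis than in cortex and pancreas by the rhesus and 5 by the human type, and 0 lower. The leukocyte antigen PTPRC was at 9.70 in testis against 4.15 in cortex and 5.69 in pancreas on the rhesus arrays. DNTT, which adds bases to T cell receptor genes, was at 7.88 against 3.18 and 3.67, and CD1B was at 8.45 against 3.19 and 3.99. The human arrays gave DNTT at 5.34 in testis against 2.83 and 2.91, and CD1B, at 3.50, was not called. BCL11B, CD4, GATA3 and PTCRA were at the floor in testis on the rhesus arrays. The summed level of the 10 genes was 10.74 to 10.75 in testis, 6.67 to 7.39 over cortex and pancreas and 15.68 to 15.69 in thymus on the rhesus arrays, and 9.80 to 9.88, 6.85 to 7.92 and 14.46 on the human arrays. Their part in the testis levels of the shared genes was not tested.

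In the shared genes, fibroblasts and thymus mostly differed alike on the array types. Thymus minus fibroblasts had the same sign on both types for 96 of 97 shared genes, with a Pearson correlation of 0.956 and a Spearman correlation of 0.946 across genes. These values are a description, since the genes had to pass the margin on both types. They were not taken over all genes. The difference between types was called by limma in 4 shared genes (4.12%), against 18.7% of all genes and 7.22% of the 2827 bright genes, which is nearer. In DEPDC1 the thymus excess was larger on the human arrays, at 2.30 against 1.03 (difference -1.27, limma adjusted p = 0.00293). In TNC the fibroblast excess was larger on the human arrays, with a difference of 1.25 (limma adjusted p = 0.0294). CTSS and APBB1IP, the latter a Rap1 effector in leukocytes, had thymus minus fibroblasts at 0.92 and 1.11 among rhesus arrays and at -0.13 and 0.08 among human arrays (limma adjusted p = 0.02 and 0.0129). APBB1IP read 12.08 and 12.07 in thymus and 10.94 and 10.98 in fibroblasts on the rhesus arrays, and 6.53 and 5.72, and 6.14 and 5.96 on the human arrays. Both differences between types turned on the probe set. The 3 further rhesus probe sets of CTSS gave thymus minus fibroblasts at 0.29, 0.17 and -0.21, near the human value. A further human probe set of APBB1IP gave 2.22, and the 4 further rhesus ones gave from 1.76 to 3.84. The count of 4 rested on single arrays too, and it fell to 1 without fibroblast array 3 and to 2 without thymus array 1, 2 or 4.

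How a gene was read mattered for the set. Of 102 further rhesus probe sets of the 97 genes, 48 had a margin of at least 1 and 39 had none above 0. Of 134 further human probe sets, 33 reached 1 and 74 were not above 0. Of those below 1, 23 rhesus and 74 human probe sets read both thymus and fibroblasts under 4. A further rhesus probe set of PTTG1 had a margin of -7.95, with cortex highest at 13.25. When a gene was read by the mean of all its probe sets, 57 genes met the rule, 51 of them among the 97.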

How the data were processed

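Each array type has its own table, in which the authors deposited log2 values per probe set, and RMA is the method in the submitters' processing notes, with a version not given in the sources used here. Each column was used. Genes were named by the array annotation, keeping probe sets with 1 symbol. The members, gene lists, tests and named genes were chosen with earlier results of these data known. The text names the 15 genes with the largest margin, the shared genes of the lists, the 5 largest differences each way called on both types, the genes at the limit, and others said to be picked later.

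The fits used lmFit and eBayes of limma 3.58.1 (R 4.3.3) over 52766 rhesus and 54613 human probe sets, separately per type, with Benjamini-Hochberg adjustment. The difference between types was a contrast over 11956 genes and 20 arrays. On simulated data for thymus minus fibroblasts, 76 of 100 rhesus and 82 of 100 human probe sets changed by 1.5 were recovered, and 94 of 100 changed by 3 on each, with 1 false call each. All other simulated probe sets had equal means in every source, unlike the data, where many genes differed, so these rates may not carry over. Alternatives were other scalings, probe set rules, thresholds, filters and arrays left out. The number of arrays limits the precision.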

Additional observations from a re-analysis of the deposited data

Results flagged for a closer look

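Probe sets without a gene symbol were not used above, and some met the same rule. On the rhesus arrays 171 of 27449 such probe sets had thymus and fibroblast means at least 1 log2 unit above the other 3 sources, which is 0.623%, against 1.17% of all probe sets. On the human arrays 12 of 11721 did, which is 0.102%, against 0.634% of all. They were counted on each array type alone, since unnamed probe sets cannot be matched between the types.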

How the results depend on the processing

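The 97 genes became 57 when a gene's probe sets were averaged, 227 with spiked controls subtracted, 259 and 29 at thresholds of 0.5 and 2, and 303 with testis left out of the highest source; they stayed between 95 and 105 without any 1 array. Genes higher in thymus on the rhesus arrays numbered 48 with no minimum difference and 16 with spiked controls subtracted (26 to 29 without 1 array), and genes higher in fibroblasts 26 and 26 (16 to 19). On the human arrays fibroblasts were higher in 29 with spiked controls subtracted (17 to 20 without 1 array), and thymus in 18 to 24 without 1 array. Testis was lower on the rhesus arrays in 4 genes after quantile normalization, 1 with array medians subtracted, 9 with no minimum, 1 with spiked controls and 6 without pancreas, and on the human arrays in 0 with the mean of probe sets, 4 with no minimum, 0 with spiked controls and 4 without pancreas. Without 1 array these counts were 1 to 3 and 1 to 2: the rhesus count fell to 1 without cortex array 1 or testis array 2, and the human count rose to 2 without either pancreas array. Testis was higher in 54 on the human arrays with no minimum (32 to 36 without 1 array), and in 45 to 51 on the rhesus arrays without 1 array. Differences between types numbered 2 after quantile normalization, 8 with the mean of probe sets, 14 with no minimum and 1 to 4 without 1 array. The cause of these moves was not tested, apart from limits that are less strict by construction. Scaling moved the median testis difference of all genes by -0.24 (quantile, rhesus), 0.11 (array medians, rhesus), and 0.33 and 0.34 (spiked controls). With the replicate number as a block, 28 and 17 rhesus and 22 and 19 human genes were called for thymus and fibroblasts, so the block moved no count beyond 1.5 times; same-numbered arrays of different sources did not deviate together (correlations from -0.034 to 0.018), so they were not paired. No call of a named gene turned to the other direction, with 961 values on the same side of the threshold, 14 newly past it and 13 no longer past it. Direction was not followed for differences that stayed uncalled, and small ones can change sign with the scaling. With 2 arrays per source, small differences near the floor are not resolved.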
